A study of Homo sapiens with 12 samples.

Results

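The histone genes measured in polyA RNA were taken as every protein-coding gene whose symbol starts with HIST1H, HIST2H, HIST3H, HIST4H, H1F, H2AF, H2BF or H3F. The authors' deposited tables listed 52 such genes among 23195 genes, of which 14515 were protein-coding. By symbol, 40 were clustered genes (HIST1 to HIST4), the class known as replication-dependent, and 12 were filed as replacement variants (H1F, H2AF, H2BF and H3F symbols). The RNA came from HCT116, a human colorectal carcinoma cell line. Cells had received siControl, a non-targeting siRNA, or siRFX7, which targets the transcription factor RFX7, and then 10 µM Nutlin-3a or its solvent DMSO for 24 h. Nutlin-3a blocks MDM2 and thereby stabilises p53. The 4 groups were siControl with DMSO, siControl with Nutlin-3a, siRFX7 with DMSO and siRFX7 with Nutlin-3a, with 3 libraries each, each prepared from 500 ng of input RNA by a kit that selects polyadenylated RNA. Nothing in the labels says that replicates came from separate cultures, so p-values measure the spread between these libraries. The tables hold 1 statistic per gene and comparison, so values of single libraries cannot be shown.

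Histones H2A, H2B, H3 and H4 form the nucleosome core around which DNA is wrapped, and H1 binds the linker DNA between cores. The clustered genes are transcribed in S phase, when new DNA must be packaged, and most of their mRNA ends in a short stem-loop bound by SLBP instead of a poly(A) tail. Some clustered genes also give polyadenylated mRNA from a site further downstream, and this form is known from cells that have left the cycle or differentiated. Replacement variants such as H2A.Z (H2AFZ) and H3.3 (H3F3A, H3F3B) lie outside the clusters, often have introns, usually have a poly(A) tail, and enter chromatin also outside S phase. Of the genes filed here as such, H1F0, H1FX, H2AFJ, H2AFX, H2BFS and H3F3C have annotated coding transcripts of 1 exon only. A kit that selects poly(A) therefore sees only part of the clustered histone mRNA, and bulk values cannot tell fewer cells of one kind from less RNA per cell.

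The stem-loop is shown because it separates the usual end of clustered histone mRNA from the polyadenylated end that the kit selects. Its letters were searched as GGNNNTTTTNANNNCC with 6 paired stem positions, on the transcript strand, in the first 150 bases after the stop codon of GENCODE release 29 transcripts (GRCh38). It was found in 23 of the 52 genes, and in 1 of 14324 other protein-coding genes with an annotated 3′ UTR (0.00698%). Capitals mark the stem-loop core in the following examples, printed 5′ to 3′ on the strand of each gene.
HIST1H2AC, chr6:26124664-26124689, plus strand: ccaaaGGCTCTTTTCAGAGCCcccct
HIST1H2BD, chr6:26158582-26158607, plus strand: ccaaaGGCTCTTTTAAGAGCCacgca
HIST2H2BE, chr1:149886183-149886208, minus strand: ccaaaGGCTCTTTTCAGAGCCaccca
HIST3H2A, chr1:228457364-228457389, minus strand: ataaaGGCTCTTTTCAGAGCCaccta
HIST1H4E, chr6:26204996-26205021, plus strand: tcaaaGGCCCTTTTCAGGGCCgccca
HIST1H4I, chr6:27139649-27139674, plus strand: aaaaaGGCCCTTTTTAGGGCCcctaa
H2AFX, chr11:119094893-119094918, minus strand: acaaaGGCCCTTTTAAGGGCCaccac

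The core of HIST1H2AC, HIST2H2BE and HIST3H2A was shared by 10 genes, that of HIST1H4E by 5, and those of HIST1H2BD and of HIST1H4I by 3 each. H2AFX, the variant phosphorylated at DNA breaks, was the only gene outside the clusters among these 52 with a match. Of the 18 clustered genes with no match, 14 had no 3′ UTR in the annotation, so their window could not be searched. Among the 22 clustered genes with a match, 18 had an annotated transcript that was spliced or ran at least 100 bases past the stem-loop, as the polyadenylated form does.

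The mean depth recovered from the authors' deposited tables was 26640035 to 27273750 counts per library across the groups. RFX7 was lower under siRFX7 by 2.35 on the log2 scale in DMSO (19.6% remaining) and by 2.14 in Nutlin-3a (22.6% remaining), so the knockdown went with the labels. The epithelial markers KRT8 (mean normalized count 80338) and EPCAM (7516) were abundant, whereas PTPRC, CD3E, MS4A1 and PECAM1, which mark leukocytes and endothelium, were not listed in the authors' deposited tables. Of the other listed markers, the epithelial VIL1 had a mean normalized count of 7.999, the stromal COL1A1 and COL3A1 of 441 and 2.08, the endothelial VWF of 13.5 and the myeloid LYZ of 3.06. Of 7 RNAs that carry no poly(A) tail, 1 was listed (RN7SL2), with a log2 fold change under Nutlin-3a of 0.17 in siControl cells and 0.24 in siRFX7 cells. In addition, 107 small nuclear, nucleolar and Cajal-body RNAs were listed with a summed mean normalized count of 632.

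Clustered histone genes were scarce in this polyA RNA and replacement variants were abundant. Over all 12 libraries the median mean normalized count was 4.70 for the 40 clustered genes and 3097 for the 12 replacement variants. Per kilobase of annotated exon the medians were 7.30 and 1308. Clustered genes together held 0.00719% of all normalized counts and replacement variants 0.283%. Of the clustered genes, 15 reached a mean normalized count of 10 and 5 reached 100, whereas 11 replacement variants reached 10 and 10 reached 100.

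The 5 clustered genes with a mean of at least 100 were HIST1H2BK (322), HIST3H2A (301), HIST1H2BD (297), HIST1H1C (270) and HIST1H2AC (259). Per kilobase the order was HIST1H2BK (846), HIST1H1C (420), HIST1H2BD (341), HIST3H2A (337) and HIST1H2AC (155). HIST1H2BK and HIST1H1C have only their coding part in this annotation, so their values per kilobase rest on a short model. Of the transcript of HIST1H2BK, 74.1% of 50-base windows also occur in other genes, chiefly H2BFS, and its counts are uncertain to that extent.

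Group levels were recovered from the authors' deposited tables for the 36 histone genes listed in enough of them, 25 clustered and 11 replacement. Each level is a mean of normalized counts over 3 libraries. In siControl cells the summed level of the 25 clustered genes was 958 (model SE 25.3) in DMSO and 2599 (SE 53.1) in Nutlin-3a. In siRFX7 cells it was 1430 (SE 32.8) in DMSO and 2608 (SE 53.2) in Nutlin-3a. For the 11 replacement variants the sums were 112654, 58026, 84948 and 47878 in the same order of groups. Clustered genes thus made up 0.843% of these histone counts with siControl and DMSO and 4.29% with siControl and Nutlin-3a, and 1.66% and 5.17% with siRFX7. The siControl DMSO group was the lowest of the 4 in clustered counts, and both Nutlin-3a groups lay together above both DMSO groups.

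The comparison of Nutlin-3a with DMSO asks how histone mRNA responds to p53 activation. In siControl cells, most clustered genes with a mean of at least 10 rose while nearly all replacement variants fell. In the authors' deposited table, 13 of the 40 clustered genes were called higher and 8 lower at an adjusted p below 0.05, against 22.0% higher and 21.2% lower among all 23195 genes (43.2% in either direction). Their median log2 fold change was 0.29, beside 0.02 for all genes. Of the 15 clustered genes with a mean of at least 10, 12 were higher, 2 lower and 1 not called, with a median of 1.47. Among all genes at that level 28.8% were called higher and 27.7% lower (56.5% in either direction). This mean is taken over all 12 libraries, Nutlin-3a groups included, so passing the limit depends in part on the response itself. HIST1H2BE passed with siControl levels of 6.67 in DMSO and 40.7 in Nutlin-3a. HIST1H1E (12.4 and 4.05) and HIST1H2AJ (12.4 and 1.36), both called lower, did not pass. Of the 12 replacement variants, 10 were lower, 1 higher and 1 not called, with a median log2 fold change of -0.59. The 10 variants with a mean of at least 100 were all lower, against 32.0% of all genes at that level.

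H2B genes were the most numerous risers in siControl cells. Of 12 clustered H2B genes, 6 were called higher and none lower, against 22.0% and 21.2% of all genes. HIST1H2BD had a recovered level of 82.5 in DMSO and 507 in Nutlin-3a, a log2 fold change of 2.62 (SE 0.13, adjusted p 3.96e-91 in the authors' deposited table). HIST1H2BK had levels of 146 and 483 (log2 fold change 1.72, SE 0.13, adjusted p 2.28e-41). HIST1H2BE had levels of 6.67 and 40.7, which is a log2 fold change of 2.61 (SE 0.43) from a low start. The levels of HIST1H2BJ were 11.7 and 33.8, those of HIST2H2BE 19.7 and 54.4 and those of HIST1H2BN 21.7 and 63.7, with deposited log2 fold changes of 1.53, 1.47 and 1.55. HIST1H2BC, at 11.7 and 19.2, was not called (adjusted p 0.307 in the authors' deposited table).

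Of the clustered genes with a mean of at least 10, 3 of 4 H2A genes, both H3 genes and the H1 gene also rose. In siControl cells HIST1H2AC, an H2A gene, had a level of 81.8 in DMSO and 336 in Nutlin-3a (deposited log2 fold change 2.04, SE 0.13, adjusted p 1.20e-51). HIST1H2AG had levels of 35.0 and 94.2, and HIST3H2A of 216 and 419, with deposited log2 fold changes of 1.43 (SE 0.21) and 0.96 (SE 0.10). HIST1H3E encodes a replication-type H3 and had levels of 23.0 and 152, with the largest fold among clustered genes of this level (log2 fold change 2.73, SE 0.23, in the authors' deposited table). HIST1H3H, the other H3 gene with a mean of at least 10, had levels of 30.04 and 61.7. HIST1H1C, the linker histone H1.2, had levels of 170 and 285 and a deposited log2 fold change of 0.75 (SE 0.13).

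Among clustered genes with a mean of at least 10, HIST2H2AC and HIST1H4E fell. HIST2H2AC, an H2A gene, in siControl cells had a level of 20.02 (DMSO) and 5.42 (Nutlin-3a), a log2 fold change of -1.89 (SE 0.51, adjusted p 0.000813, authors' deposited table). HIST1H4E, the only H4 gene with a mean of at least 10, had levels of 16.7 and 6.10 (deposited log2 fold change -1.45, SE 0.53, adjusted p 0.0152). Of 12 clustered H4 genes, 4 were lower (33.3%), 1 was higher and 7 were not called in the authors' deposited table. Among all genes 21.2% were lower and 22.0% higher. The H4 gene called higher, HIST1H4I, had levels of 0.669 and 6.79. A group mean under 1, which is 3 counts over 3 libraries, is too low for a firm fold. Besides HIST1H4E, the H4 genes called lower were HIST1H4A, HIST1H4C and HIST1H4D, which were scarce as well. Their mean normalized counts were 1.47, 4.67 and 2.60, and the SEs of their log2 fold changes 1.70, 0.87 and 1.46.

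**Figure D1:**
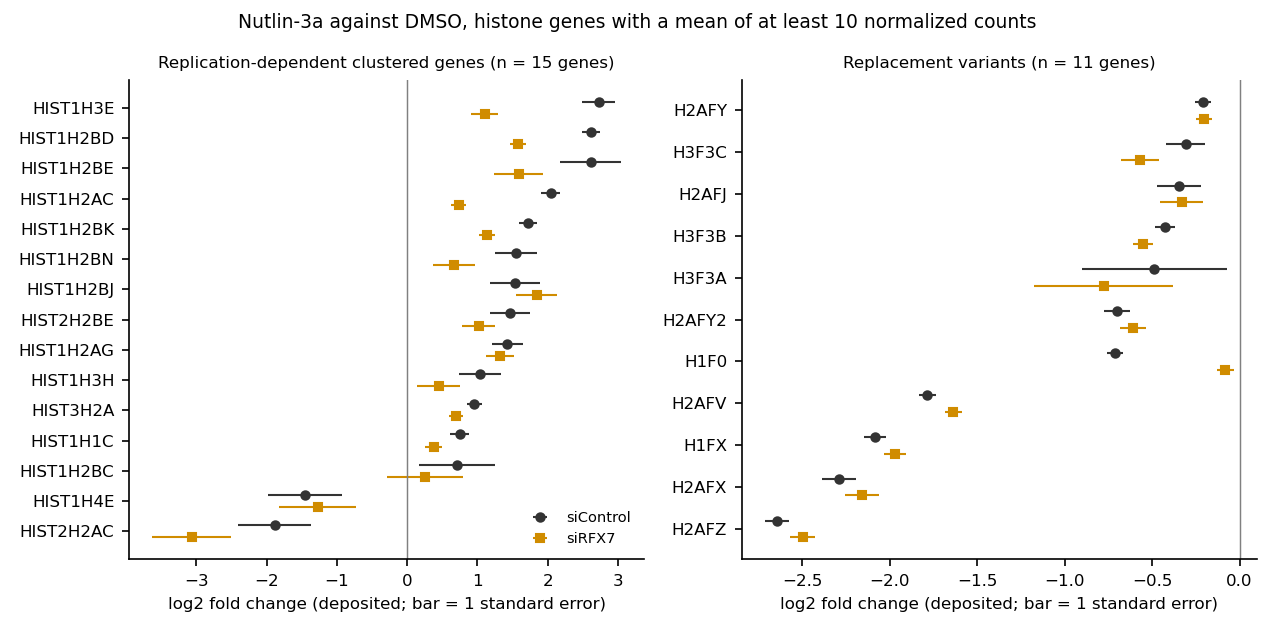
Deposited log2 fold changes of Nutlin-3a against DMSO in siControl cells (circles) and siRFX7 cells (squares), with 1 standard error, for 15 clustered histone genes (left) and 11 replacement variants (right) whose mean normalized count was 10 or more. In siControl cells 12 of the 15 clustered genes were called higher, while all 11 replacement variants lie below 0 (10 called lower).

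The replacement variants that fell most were H2AFZ and H2AFX. H2AFZ, which encodes the variant H2A.Z, had a recovered level of 23327 in siControl DMSO and 3735 in siControl Nutlin-3a (log2 fold change -2.64, SE 0.07, authors' deposited table). H2AFX had levels of 8859 and 1812 (deposited log2 fold change -2.29, SE 0.10, adjusted p 1.75e-117). H1FX, the linker histone H1X, had levels of 4428 and 1042, and H2AFV, the second H2A.Z gene, of 4768 and 1383. Their deposited log2 fold changes were -2.09 (SE 0.06) and -1.79 (SE 0.05). These 4 genes stood apart from the other replacement variants that were called lower, whose log2 fold changes lay between -0.71 and -0.21.

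H1F0, the linker histone H1.0 of resting and differentiated cells, had levels of 29050 and 17724 in siControl cells (deposited log2 fold change -0.71, SE 0.05). H3F3B, which encodes H3.3, had levels of 27328 and 20311 (-0.43, SE 0.06). The macroH2A genes H2AFY and H2AFY2, whose products are known from silent chromatin, had deposited log2 fold changes of -0.21 (SE 0.05) and -0.70 (SE 0.08). H2AFJ had one of -0.35 (SE 0.12), and H3F3C, an H3.3-like copy gene, one of -0.31 (SE 0.11). Of the 50-base windows of H3F3C, 21.8% also occur in H3F3B, whose mean normalized count was 21919 against 3341 for H3F3C. The counts of H3F3C are uncertain to that extent. H3F3A, the other H3.3 gene, was listed with a mean normalized count of only 25.1 and was not called (deposited log2 fold change -0.49, SE 0.41, adjusted p 0.377). H2BFS was called higher in the authors' deposited table (log2 fold change 3.83, SE 1.41, adjusted p 0.0171), with a mean normalized count of 2.60. All of its 50-base windows occur elsewhere in the transcript set, so its counts cannot be assigned to it alone.

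Several replacement variants share sequence with processed pseudogenes that were listed separately. The H2AFZ pseudogenes H2AFZP3 (mean normalized count 2365) and H2AFZP2 (1047) had deposited log2 fold changes under Nutlin-3a in siControl cells of -2.61 and -2.59, next to -2.64 for H2AFZ itself. H3F3AP4 had a mean normalized count of 537, above the 25.1 of H3F3A, and 11.7% of the windows of H3F3A also occur in other genes, chiefly in this pseudogene. H2AFVP1 had a mean of 405 and a deposited log2 fold change of -1.64. How reads with several matches were counted is not given in the sources used here, and the part of such reads in these values was not tested. On the opposite strand, H1FX-AS1 (mean normalized count 61.8) covers 22.9% of the annotated exons of H1FX, and other genes, chiefly C5orf66 (15.3), together cover 30.9% of those of H2AFY. Among clustered genes, HIST1H2BN covers 100% of the exons of HIST1H2AK on the opposite strand, HIST1H2AM covers 44.6% of those of HIST1H3J on the same strand, and AL353759.1 covers 28.2% of those of HIST1H2BE on the opposite strand.

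Clustered genes differed in count level and in annotated transcript, and these features overlapped. The 20 clustered genes with a spliced model or one running at least 100 bases past the stem-loop had a median mean normalized count of 20.8, and 12 of them reached 10. In siControl cells 11 of these 20 were called higher and 1 lower, against 22.0% and 21.2% of all genes. Their median log2 fold change was 1.34 in the authors' deposited table. The 20 genes with short models had a median mean of 2.49. Per kilobase of annotated exon the medians were 8.63 for the longer or spliced models and 7.12 for the short ones. Most of the difference in counts was thus not seen per length. Of the 20 genes with short models, 2 were higher, 7 lower and 11 not called, with a median log2 fold change of -1.72. The 2 that rose, HIST1H1C and HIST1H2BK, were also the most abundant genes with short models. Only 3 short-model genes had a mean of at least 10, with 2 higher, 1 lower and a median of 0.75, so transcript model and count level cannot be told apart here. Of the 25 clustered genes with a mean under 10, 1 was higher, 6 were lower and 18 were not called under Nutlin-3a in siControl cells. The share of all genes called at means under 10 was not counted. Single values of these 25 genes were imprecise, for example HIST1H4A at a log2 fold change of -4.41 (SE 1.70) and HIST1H3B at -3.78 (SE 1.49) in the authors' deposited table. Whether the scarce counts of genes with short models come from mRNA without a poly(A) tail was not tested.

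**Figure D2:**
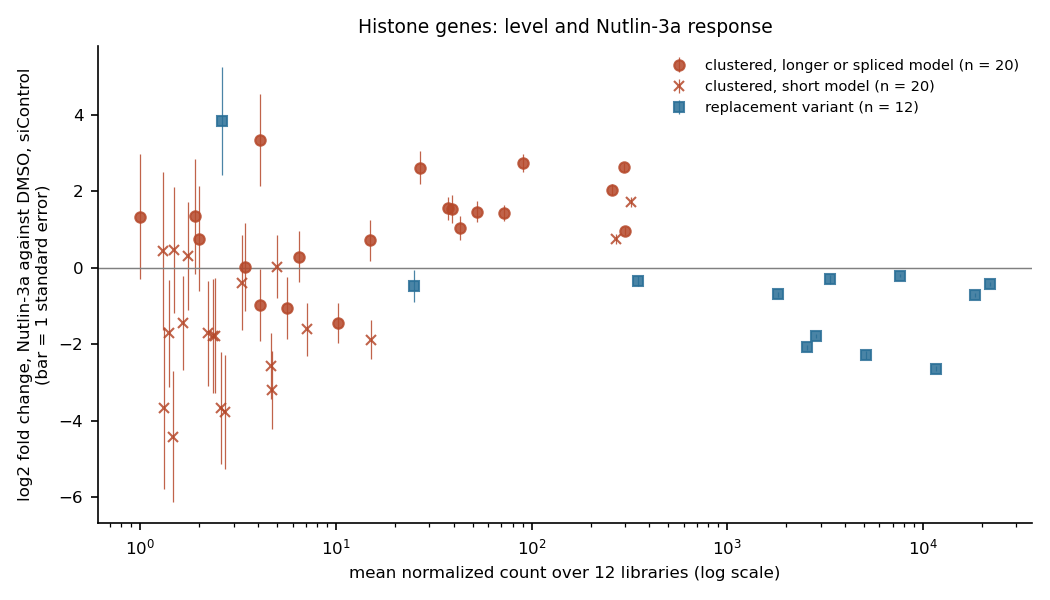
Deposited log2 fold change of Nutlin-3a against DMSO in siControl cells (vertical axis, bars of 1 standard error) against the mean normalized count over 12 libraries (horizontal log axis) for all 52 histone genes. Clustered genes with longer or spliced models (filled circles, n = 20) had a median of 1.34, those with short models (crosses, n = 20) a median of -1.72, and all replacement variants with a mean of at least 10 (squares) lie below 0.

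Divergent gene pairs show how differently clustered neighbours behaved. In 8 pairs of these genes, the starts lay at most 1000 bases apart on opposite strands, so that both share the sequence between them. HIST2H2BE and HIST2H2AC start 236 bases apart on chromosome 1. In siControl cells HIST2H2BE had a deposited log2 fold change under Nutlin-3a of 1.47 (SE 0.29) and HIST2H2AC one of -1.89 (SE 0.51), and in siRFX7 cells the values were 1.02 and -3.07. HIST1H2AC and HIST1H2BC start 246 bases apart, and of these HIST1H2AC was called higher and HIST1H2BC was not called. In the pair HIST1H2BJ and HIST1H2AG both genes rose, by deposited log2 fold changes of 1.53 and 1.43. In the other 5 pairs at least 1 gene had a mean under 10. HIST1H2BK, HIST1H2BN and HIST3H2A rose in siControl cells, and their partners HIST1H2AH, HIST1H2AK and HIST3H2BB were not called, with means of 2.21, 1.75 and 6.499. HIST1H2AK lies within exons of HIST1H2BN, so this pair is not separate where strand was not counted.

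The octamer ATTTGCAT, a binding motif of OCT1 known from H2B promoters, lay in the stretch shared by several pairs. Promoter windows of 250 bases before to 50 after each start (RefSeq, GRCh38.p14) were matched for 45 of the 52 genes, 36 clustered and 9 replacement. For 24 of the 45, bases just after the start were found in a GENCODE transcript of the same gene. For the others the link between window and measured transcript was not checked further. The octamer was present on either strand in 12 of the 36 clustered promoters and 1 of the 9 replacement promoters, against 1.77% of 35116 promoters. The following windows are printed on the strand of the named H2B gene, with the octamer in capitals. They are shown because some pairs gave unlike results (HIST2H2BE and HIST2H2AC) and others like ones (HIST1H2BJ and HIST1H2AG). HIST1H2BE belongs to none of the pairs.
HIST2H2BE, also upstream of HIST2H2AC, chr1:149886712-149886737, minus strand: ggagccctaATTTGCATaaggtggtt
HIST1H2BC, also upstream of HIST1H2AC, chr6:26124033-26124058, minus strand: tcatacctcATTTGCATagctctgcc
HIST1H2BJ, also upstream of HIST1H2AG, chr6:27132826-27132851, minus strand: cttcaccttATTTGCATaagcgattc
HIST1H2BK, chr6:27146888-27146913, minus strand: cttcaccttATTTGCATgagaggtcc
HIST1H2BE, chr6:26183644-26183669, plus strand: agctccttcATTTGCATgcagacttc

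Both members of the first pair have the same octamer between them, and their log2 fold changes differed in sign in both siRNA groups. The letters TATAAA were found in 24 clustered and 4 replacement promoters (11.5% of all promoters) and CCAAT in 27 and 6 (34.6%), each searched on both strands. A match describes letters only and shows no binding.

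The letters TTTGAA, the core of the cell cycle genes homology region (CHR) found in many genes repressed through p21 and the DREAM complex, occurred in 12 clustered and 2 replacement promoters, against 15.2% of all promoters (both strands). The 2 replacement promoters were those of H2AFZ and H2AFX, the variants with the largest falls, and their windows are shown with the motif in capitals (in H2AFX it reads on the other strand).
H2AFZ, chr4:99950257-99950280, minus strand: acagcgcagTTTGAAtcgcggtgc
H2AFX, chr11:119095615-119095638, minus strand: caaaaggttTTCAAAttcgaccaa

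H1FX and H2AFV fell nearly as far and had no match in this window. Of the 12 clustered genes with the motif, 3 were called higher under Nutlin-3a in siControl cells (HIST1H2BD, HIST1H2BN and HIST3H2A), 2 lower and 7 neither, in the authors' deposited table. So short a motif recurs often, as the share of all promoters shows.

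In siRFX7 cells Nutlin-3a raised 10 clustered genes and lowered 9 replacement variants. In the authors' deposited table, 10 of the 40 clustered genes were called higher (25%) and 4 lower (10%), against 21.7% and 19.7% of all genes (41.4% in either direction). Over all 40, whatever their level, the share called higher was thus near that of all genes. The median log2 fold change over the 40 was 0.32, beside 0.29 in siControl cells. All 10 genes called higher were among the 13 called higher in siControl cells, and 3 of the 4 called lower were among the 8 called lower there. These comparisons share no library. The overlap of calls among all genes was not counted, so no overlap here or in the comparisons below is read as particular to histone genes. Of the 15 clustered genes with a mean of at least 10, 10 were higher, 2 lower and 3 not called. Among all genes at that level 28.4% were higher and 25.6% lower. The median log2 fold change of the 15 was 0.74, beside 1.47 in siControl cells, and this difference in medians was not tested. HIST1H2BJ had the highest value (levels 24.4 and 87.4, deposited log2 fold change 1.84, SE 0.29), followed by HIST1H2BE (14.9 and 44.7, 1.59), HIST1H2BD (151 and 449, 1.58) and HIST1H2AG (45.3 and 113, 1.32). HIST1H2BN, HIST1H3H and HIST1H2BC were not called (adjusted p 0.0626, 0.251 and 0.761 in the authors' deposited table). HIST2H2AC fell by 3.07 on the log2 scale, from a level of 31.1 to 3.71.

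Of the 12 replacement variants, 9 were lower in siRFX7 cells under Nutlin-3a and none higher in the authors' deposited table, and all 9 were among the 10 called lower in siControl cells. Their deposited log2 fold changes included -2.50 for H2AFZ (levels 16801 and 2974), -2.16 for H2AFX (8034 and 1798), -1.97 for H1FX and -1.64 for H2AFV. H1F0 was not called, at levels of 13986 and 13221 (log2 fold change -0.08, SE 0.05, adjusted p 0.163), nor were H3F3A and H2BFS. Among the 10 variants with a mean of at least 100, 9 were lower, against 28.7% of all genes at that level.

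The siRFX7 comparison in DMSO asks what RFX7 loss does without p53 activation. Here 8 clustered genes rose and none fell, and 6 replacement variants fell. The authors' deposited table listed 25 clustered genes, and the 8 called higher stand against 13.5% higher and 15.5% lower among 20026 genes (29.0% in either direction). The median log2 fold change was 0.23 over the 25 and 0.63 over the 15 with a mean of at least 10. Among the genes called, HIST1H2AC had the largest rise, from a level of 81.8 to 231 (deposited log2 fold change 1.50, SE 0.14, adjusted p 3.02e-26). HIST1H3E rose from 23.0 to 58.6 (1.35, SE 0.25), HIST2H2BE from 19.7 to 44.6 (1.18, SE 0.29) and HIST1H2BD from 82.5 to 151 (0.87, SE 0.14). The remaining calls were HIST1H2BE (1.16), HIST1H2BJ (1.06), HIST1H1C (0.68) and HIST1H2BK (0.50). HIST3H2A had levels of 216 and 218 and a deposited log2 fold change of 0.02 (SE 0.11), the only one of the 5 clustered genes with a mean of at least 100 that was not called.

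Among replacement variants in DMSO, H1F0 had by far the largest difference. Its level was 29050 in siControl and 13986 in siRFX7 cells, a log2 fold change of -1.05 (SE 0.05, adjusted p 1.09e-110 in the authors' deposited table). H2AFZ followed at -0.47 (SE 0.07), then H2AFV at -0.26, H2AFY2 at -0.23, H1FX at -0.21 and H3F3B at -0.20. Among the 10 variants with a mean of at least 100, 6 were lower, against 23.4% of all genes at that level. H2AFX, H2AFY, H2AFJ, H3F3A and H3F3C were not called, with deposited log2 fold changes between -0.14 and 0.43. The calls of H2AFY2 and H3F3B were lost when the fold changes were scaled to equal library totals (log2 fold changes -0.17 and -0.14).

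In Nutlin-3a, fewer clustered histone genes were called between siRFX7 and siControl cells than in DMSO. The authors' deposited table listed 23 clustered genes, of which 3 were higher (13.0%) and 2 lower (8.70%) under siRFX7. Among 19393 genes 15.0% were higher and 13.6% lower (28.6% in either direction). Over all 23, neither share was thus above that of all genes. The 3 higher were HIST1H2BJ (33.8 and 87.4, deposited log2 fold change 1.37, SE 0.28), HIST2H2BE (54.4 and 90.5, 0.73, SE 0.23) and HIST1H1C (285 and 353, 0.31, SE 0.12, adjusted p 0.0456). All 3 were also among the 8 called higher in DMSO. The 2 lower, HIST1H2BN (-0.68, SE 0.27) and HIST3H2A (-0.25, SE 0.10), had adjusted p values of 0.0467 and 0.0433 and were lost after scaling to equal library totals (-0.65 and -0.22). HIST1H2AC, HIST1H2BD and HIST1H3E, which rose in DMSO, had deposited log2 fold changes here of 0.20, -0.17 and -0.28 and were not called. Of 11 replacement variants, 4 were lower, namely H1F0 (-0.42, SE 0.05), H3F3C (-0.39, SE 0.11), H2AFZ (-0.33, SE 0.07) and H3F3B (-0.32, SE 0.06). H3F3C and H3F3B share sequence, as given above, so these calls may not be separate. Among the 10 replacement variants with a mean of at least 100, 4 were lower, against 19.3% of all genes at that level.

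**Figure D3:**
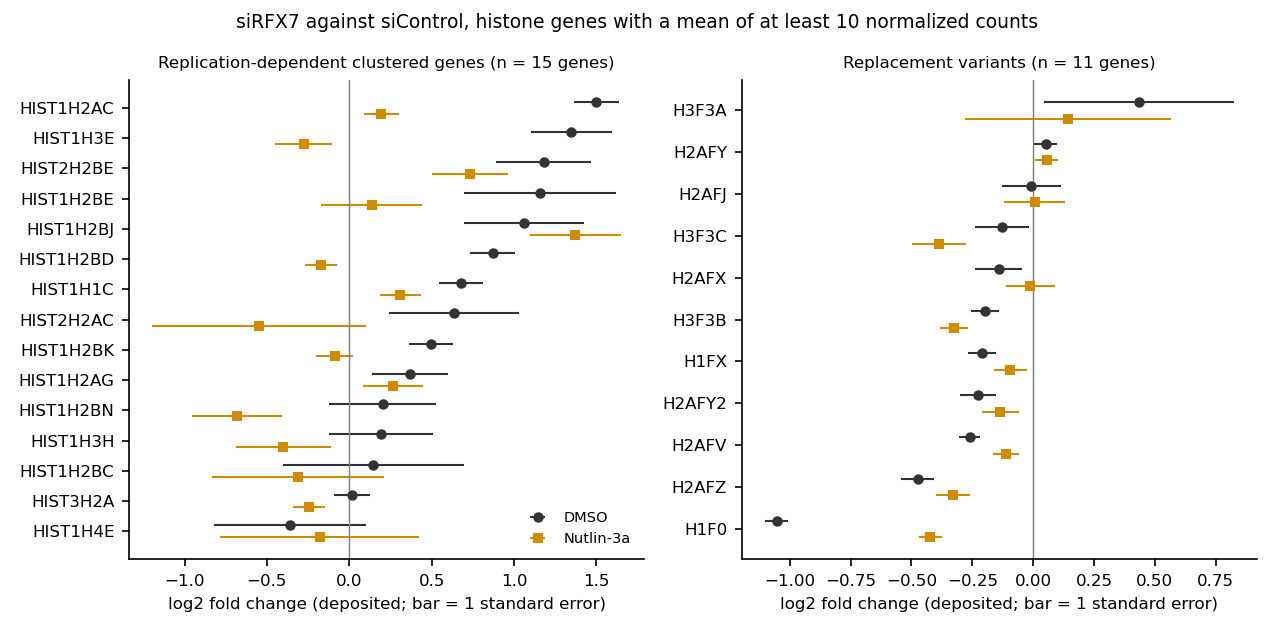
Deposited log2 fold changes of siRFX7 against siControl in DMSO (circles) and in Nutlin-3a (squares), with 1 standard error, for 15 clustered histone genes (left) and 11 replacement variants (right) whose mean normalized count was 10 or more. In DMSO 8 clustered genes were called higher and H1F0 is the farthest below 0 (-1.05), while in Nutlin-3a 3 clustered genes were called higher.

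The interaction is the Nutlin-3a log2 fold change in siRFX7 cells minus that in siControl cells, tested here with a two-sided z test adjusted over 23195 genes. It was called for 5 histone genes. Among clustered genes 4 had a smaller response in siRFX7 cells and none a larger one, against 2.92% and 3.28% of all genes (6.20% in either direction). HIST1H3E had an interaction of -1.62 (SE 0.30, adjusted p 5.53e-06), HIST1H2AC of -1.30 (SE 0.17, adjusted p 6.79e-12), HIST1H2BD of -1.04 (SE 0.17, adjusted p 1.09e-07) and HIST1H2BK of -0.59 (SE 0.17, adjusted p 0.0171). For these 4 genes the DMSO level was higher in siRFX7 than in siControl cells, and the Nutlin-3a levels lay closer together. HIST1H3E, for example, stood at 23.0 and 58.6 in DMSO and at 152 and 126 in Nutlin-3a. HIST1H2AC stood at 81.8 and 231 in DMSO and at 336 and 385 in Nutlin-3a.

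H1F0 was the only replacement variant with a called interaction, of 0.63 (SE 0.07, adjusted p 4.70e-19). Its levels were 29050 (DMSO) and 17724 (Nutlin-3a) in siControl cells, and 13986 and 13221 in siRFX7 cells. For the other 11 replacement variants and 36 clustered genes the interaction was not called. That does not show equal responses: HIST1H2BE had an interaction of -1.02 with an SE of 0.55, whereas for H2AFY it was 0.00 with an SE of 0.07.

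**Figure D4:**
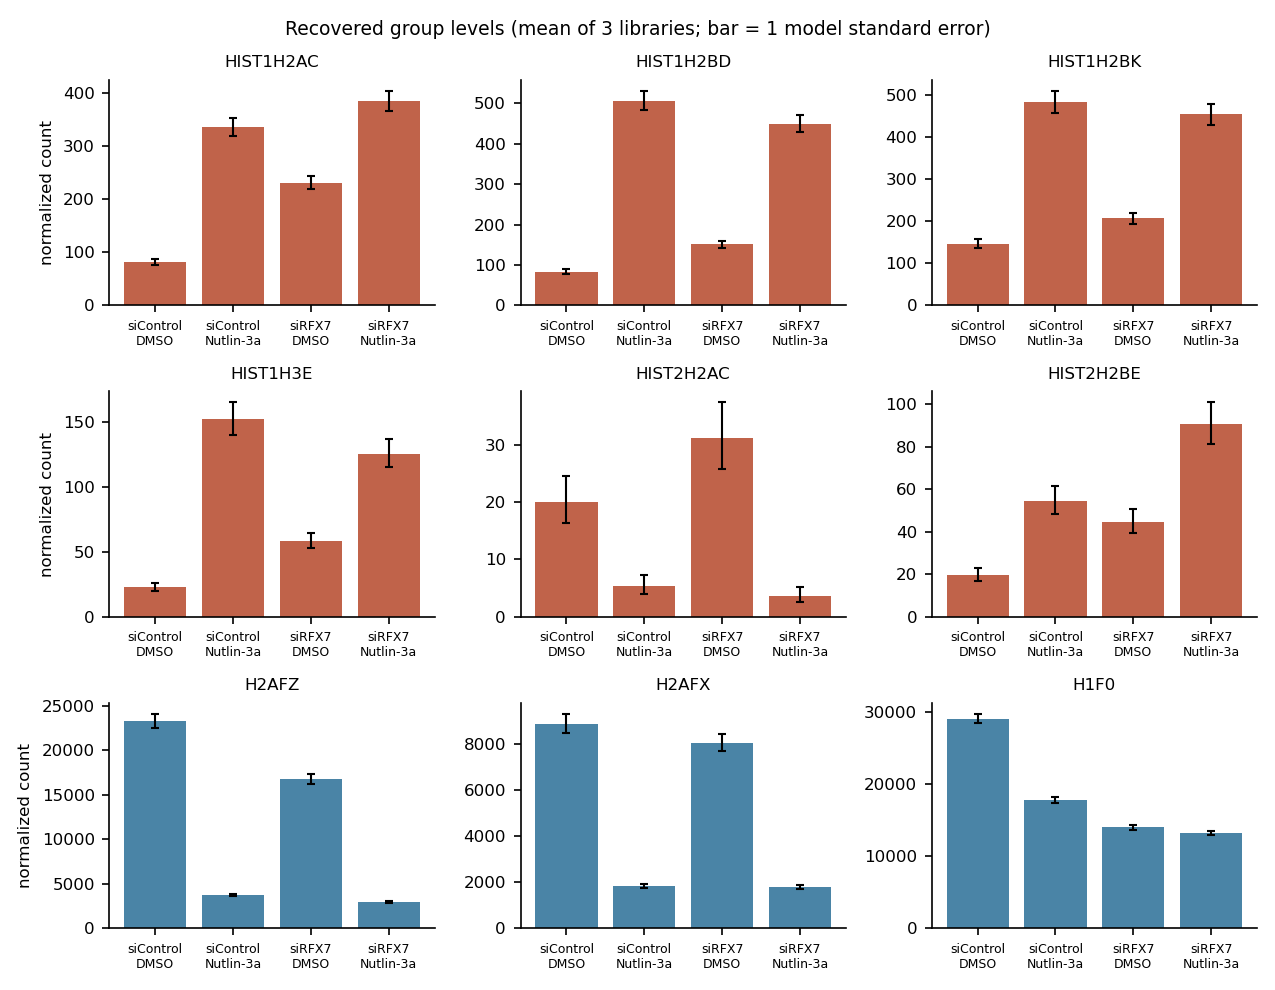
Recovered group levels (normalized counts, mean of 3 libraries, linear axes from 0, bars of 1 model standard error) of 6 clustered genes and 3 replacement variants in the 4 groups. HIST1H2AC, HIST1H2BD, HIST1H2BK and HIST1H3E are lowest in siControl DMSO, HIST2H2AC and HIST2H2BE respond to Nutlin-3a in opposite directions, and H1F0 is highest in siControl DMSO.

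Genes that act on histone mRNA mostly fell under Nutlin-3a. Of 15 genes for its transcription and 3′ processing, 11 were lower and 1 higher in siControl cells (median log2 fold change -0.49), and 10 were lower and 1 higher in siRFX7 cells (median -0.37), in the authors' deposited tables. All 15 had a mean of at least 100, and of all genes at that level 32.0% were lower and 33.4% higher in siControl cells, and 28.7% and 34.0% in siRFX7 cells. SLBP, which binds the stem-loop, had a deposited log2 fold change of -1.27 (SE 0.09) in siControl cells. NPAT, the coactivator of the histone clusters, had one of -1.12 (SE 0.12), and CASP8AP2 (FLASH), a processing factor that works with the U7 particle, one of -1.54 (SE 0.13). In siRFX7 cells these values were -1.27, -1.01 and -1.29. SYMPK, a scaffold of the cleavage complex, was the gene called higher in siControl cells (0.15, SE 0.05). With siRFX7 in DMSO, 7 of the 15 were lower and none higher in the authors' deposited table, including UPF1 (-0.56), CASP8AP2 (-0.55) and NPAT (-0.41). With siRFX7 in Nutlin-3a, 4 were lower and 2 higher. Of all genes with a mean of at least 100, 23.4% were lower and 17.1% higher with siRFX7 in DMSO, and 19.3% and 19.8% in Nutlin-3a. UPF1, which takes part in histone mRNA decay, was the only one with a called interaction (0.27).

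Most genes for chaperones that hand new histones to DNA in S phase fell under Nutlin-3a, as did several for chaperones of replacement variants. In siControl cells 4 of 5 replication-coupled chaperone genes were lower under Nutlin-3a in the authors' deposited table, namely ASF1B (-5.00, SE 0.10), CHAF1A (-3.58, SE 0.11), CHAF1B (-2.78, SE 0.08) and NASP (-1.89, SE 0.09), and ASF1A was not called (-0.10, SE 0.07). Of 10 chaperone genes for replacement variants, 6 were lower and 1 higher, with a median of -0.18. The falls included HJURP, which loads the centromeric H3 variant (-5.60, SE 0.14), ANP32E, which removes H2A.Z (-1.46, SE 0.06), and HIRA, which deposits H3.3 (-0.55, SE 0.11). ATRX, a partner of DAXX in H3.3 deposition, was the one called higher (0.36, SE 0.07). All 6 general histone chaperone genes were lower, with a median of -0.70. These 3 lists stand against 32.0% lower and 33.4% higher among all genes with a mean of at least 100, a level that all their members reached. The contrast between the first 2 chaperone lists was read from their medians (-2.78 and -0.18) and was not tested.

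S phase genes were mostly lower in each of the 4 comparisons. All 17 listed S phase genes were lower under Nutlin-3a in siControl cells (median log2 fold change -4.13) and in siRFX7 cells (median -4.02) in the authors' deposited tables. With siRFX7, 14 of 17 were lower and 1 higher in DMSO (median -0.41), and 15 were lower and 1 higher in Nutlin-3a (median -0.60). Of all genes with a mean of at least 100, which all 17 reached, 32.0% and 28.7% were lower in the Nutlin-3a comparisons, and 23.4% and 19.3% in the siRFX7 comparisons. The 8 clustered genes that rose with siRFX7 in DMSO thus rose while most S phase genes fell. Of the 107 small RNAs without a usual poly(A) tail, 2 were higher and 2 lower under Nutlin-3a in siControl cells, against 22.0% and 21.2% of all genes. Of the 45 listed for siRFX7 in DMSO, 1 was higher and 1 lower, against 13.5% and 15.5%. These small RNAs had low counts (summed mean normalized count 632), which limits what can be called. Their summed level over 45 genes was 595 (DMSO) and 519.9 (Nutlin-3a) in siControl cells, and 532 and 434 in siRFX7 cells, an order unlike that of the clustered histone genes. This difference in order was not tested. The part of the fall in S phase genes in the histone values was not tested.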

How the data were processed

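Adapter trimming with cutadapt 2.10 and Trimmomatic 0.39, counting with featureCounts 1.6.5 and testing with DESeq2 1.20.0 on hg38 are named in the submitters' processing notes. The aligner, annotation, strand setting and handling of reads with several matches are not given in the sources used here. The authors deposited 4 DESeq2 tables. Their mean normalized count is a signal (counts divided by size factors), fold changes and standard errors are on a log2 scale, the statistic is a score (fold change over standard error) and p-values are adjusted over each table's genes, per the file headers and a check of the columns. The planned count test could not be run on them, so the deposited calls (adjusted p below 0.05) were used.

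The direction of the siRFX7 tables was taken from their closure (largest error 1.27e-14). Group levels were recovered from means and fold changes with equal group weights, and depth from the standard errors. Their errors are model errors. Interactions used a z test with Benjamini-Hochberg adjustment, tested on simulated data. Features came from GENCODE 29, in which 23164 of 23195 identifiers and all 52 histone symbols matched, and promoters from RefSeq (GRCh38.p14). Python 3.11.15, pandas 2.3.3 and scipy 1.17.1 were used.

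Members and gene lists were chosen with earlier results of these data known. Text names all replacement variants, 6 clustered genes known for polyadenylated mRNA, the 3 most abundant clustered genes, up to 5 clustered genes per direction and contrast with a mean of at least 10, up to 3 called genes per list, and uncalled members where 5 or fewer. Other clustered genes (divergent pairs, HIST1H1E, HIST1H2AJ, HIST1H4A, HIST1H4C, HIST1H4D, HIST1H3B, HIST1H4I, further list genes) were chosen after their values were seen.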

Additional observations from a re-analysis of the deposited data

Results flagged for a closer look

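For 5 histone genes the Nutlin-3a effect differed between siControl and siRFX7 cells by the z test of the difference itself. The log2 differences (siRFX7 minus siControl) were 0.63 for H1F0, -1.30 for HIST1H2AC, -1.04 for HIST1H2BD, -1.62 for HIST1H3E and -0.59 for HIST1H2BK.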

How the results depend on the processing

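No paired analysis was possible because the deposited tables hold no values per library, and leaving out each replicate was not run for the same reason. No result reversed under any alternative run, but nearly all runs reused the deposited fold changes, so a reversal was hardly possible. Of 234 summary values, 202 kept their size, meaning counts within a set factor and medians within a typical standard error. In siControl cells under Nutlin-3a, the clustered genes called lower numbered 3 at an adjusted p below 0.01, 2 with a mean of at least 10 (also when adjusted over such genes in all tables) and 0 with a mean of at least 100, where 5 were higher. Clustered medians were 1.47 at a mean of at least 10 and 1.72 at 100. Replacement variants called higher were 0 under all of these, and 0 with at most 50% of windows shared, an alternative chosen after seeing the data. Their medians were -0.70 at a mean of at least 10 and under the window limit, and -0.71 at 100. With an absolute log2 value of at least 0.58, 6 replacement variants were lower in siControl cells, 5 in siRFX7 cells, 1 with siRFX7 in DMSO and 0 with siRFX7 in Nutlin-3a. In siRFX7 cells under Nutlin-3a, clustered genes called lower were 2 at an adjusted p below 0.01 and at a mean of at least 10, and 0 at 100, where 5 were higher. With siRFX7 in DMSO, 4 clustered genes were higher at a mean of at least 100. With siRFX7 in Nutlin-3a, the clustered genes called lower were 0 at an adjusted p below 0.01 and after scaling to equal totals, 1 at an absolute log2 value of at least 0.58 and 1 at a mean of at least 100, where 1 was higher. The higher mean limits test fewer genes. At an adjusted p below 0.01, HIST1H2BK lost its interaction, HIST1H4E its fall and HIST1H1C its rise with siRFX7 in Nutlin-3a. The interactions computed from the siRFX7 tables are identical by construction and are no check, although they were counted among the alternative runs. Scaling moved all genes by at most 0.06 on the log2 scale. Under a mean of about 10, standard errors above 0.5 on the log2 scale limit what can be called.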
